A study of Saccharomyces cerevisiae S288C with 12 samples.

Results

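Regions bound by an arginine mutant of Cse4, K215/216R, were compared with regions bound by wild-type Cse4 in budding yeast. The members were the regions of the authors' merged peak list of each strain, 3052 regions for K215/216R and 2635 for wild type, of 9198 regions in the merged lists of all 3 strains. A region was taken as common where it overlapped a region of the other strain by 1 bp or more, and otherwise as present only in its own strain. Joining overlapping regions gave 3478 groups, of which 2062 were common, 929 were only in K215/216R and 487 were only in wild type.

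Cse4 is the yeast form of CENP-A, the histone H3 variant that replaces H3 in the nucleosome of each centromere and on which the kinetochore is built. When it is made in excess it is also placed along chromosome arms, and Psh1, a ubiquitin ligase that marks Cse4 for degradation, limits this. The title of the series concerns SUMO, a small protein that is joined to lysines, on the C-terminal part of Cse4. Arginine keeps the positive charge of lysine but cannot accept SUMO or ubiquitin.

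All strains were Saccharomyces cerevisiae S288C with a deletion of PSH1 (psh1delta), and all made tagged Cse4 from a galactose-induced construct, pGAL-6His-3HA-CSE4, so neither strain shows Cse4 at its normal level or with Psh1 present. The tagged protein was wild type, or had lysines 215 and 216 replaced by arginine (K215/216R), and a further strain had alanine at both positions (K215/216A). Cells in log phase in 2% raffinose at 30 °C received 2% galactose for 2 hours, chromatin was sheared to about 100 bp, and tagged Cse4 was recovered on anti-HA beads. Each strain had 2 immunoprecipitated libraries, made with a Nextera kit, and the labels do not say whether these came from separate cultures, so p-values measure only the spread between these libraries.

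Depth differed between libraries more than between strains. The genome background, which is the lowest local background that the authors' fold and p imply for any peak of a library, was 59.5 fragments per base in wild type replicate 1 and 126 in replicate 2, against 86.2 and 156 in K215/216R. The 2 K215/216A libraries were at 146 and 148. Peaks numbered 3123 and 4720 in wild type and 3604 and 4822 in K215/216R, so the shallower library of each strain had the shorter list. Each merged region held peaks of both libraries of its strain, so the merged lists were limited by the shallow libraries. At the loci of the strain design, no peak overlapped the PSH1 gene in any library, which in a list of peaks does not check the deletion. Every library had 1 peak overlapping CSE4, with no summit inside the gene, and the authors' fold there was 2.87 and 2.25 in wild type and 2.73 and 2.45 in K215/216R.

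Most of what either strain bound was bound by both. Common groups made up 59.3% of the 3478 groups, those only in K215/216R 26.7% and those only in wild type 14.0%. As a share of each list, 929 regions were 30.4% of the K215/216R list and 487 regions were 18.5% of the wild type list. The common class did not hang on small overlaps, since 3 of its 2123 K215/216R regions (0.141%) overlapped a wild type region by less than 50 bp, the smallest by 3 bp. On the other side of the limit, 38 regions only in K215/216R and 27 only in wild type had a region of the other strain within 200 bp, with smallest gaps of 119 and 36 bp.

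The one-strain regions were mostly places where 1 library of the other strain also had a peak. Of the 929 regions only in K215/216R, 684 (73.6%) held a peak of wild type replicate 2, the deeper library, and of no other wild type library, 64 held a peak of wild type replicate 1 only, and 9 held separate peaks of both. No wild type peak overlapped the other 172, which were 5.64% of the K215/216R list. Of the 487 regions only in wild type, 338 (69.4%) held a peak of K215/216R replicate 2 alone, 56 of replicate 1 alone and 5 of both. No K215/216R peak overlapped the other 88, which were 3.34% of the wild type list.

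**Figure D1:**
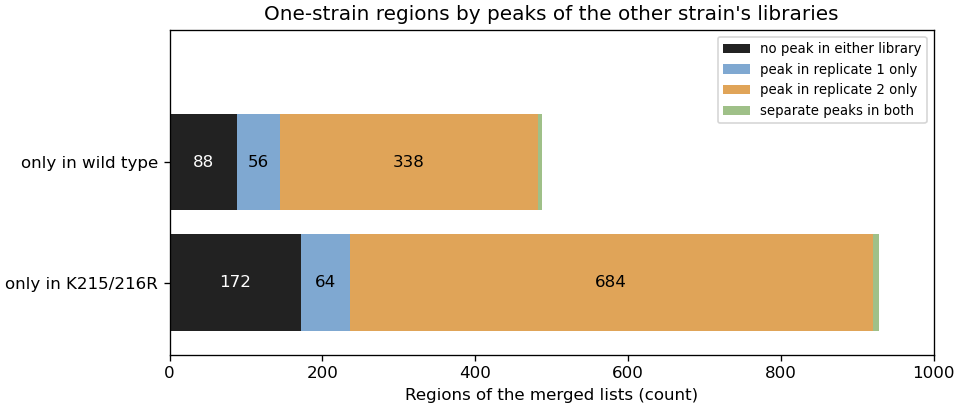
Regions of the merged lists found only in 1 strain (count on the x axis), split by which libraries of the other strain had an overlapping peak. The widest part of each bar, 684 regions for K215/216R and 338 for wild type, is regions where replicate 2 of the other strain had a peak and replicate 1 did not.

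The counts moved with depth, and their order did not hold in every setting. When the pileup and background of every peak were scaled to the depth of wild type replicate 1 and the lists rebuilt, 738 regions were only in K215/216R, 596 only in wild type and 1659 groups were common. After that scaling, regions without a peak of either library of the other strain numbered 178 in K215/216R and 182 in wild type, where the deposited lists gave 172 and 88. Replicate 2 of each strain alone gave 980 and 827 one-strain regions, and replicate 1 alone gave 1201 and 728. Leaving out a library moved the counts but also changed the rule, since a strain left with 1 library kept all its peaks. What each library added was not separated from that change. Without wild type replicate 1 there were 238 regions only in K215/216R and 1766 only in wild type, and without K215/216R replicate 1 there were 2268 and 146. Without wild type replicate 2 the counts were 871 and 769, and without K215/216R replicate 2 they were 1253 and 439.

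The share of peaks not matched also moved with depth when libraries were compared in pairs. Of the peaks of K215/216R replicate 1, 12.3% had no overlapping peak in wild type replicate 2, close to the 9.96% that had none in the second library of their own strain. Of the peaks of wild type replicate 1, 10.1% had no peak in K215/216R replicate 2, and 10.7% had none in wild type replicate 2. In the reverse direction 42.6% of the peaks of wild type replicate 2 were absent from its own shallower replicate, against 17.5% absent from K215/216R replicate 2. Depth did not order every pair. Of the peaks of wild type replicate 1, 23.3% were absent from K215/216R replicate 1, which was 1.45 times as deep. The 12.3% of K215/216R replicate 1 absent from wild type replicate 2 came at a depth ratio of 1.47. After scaling, the pairs between strains had 21.1% to 38.0% of peaks absent and the pairs within a strain 20.6% to 36.9%, so these ranges overlapped almost fully.

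**Figure D2:**
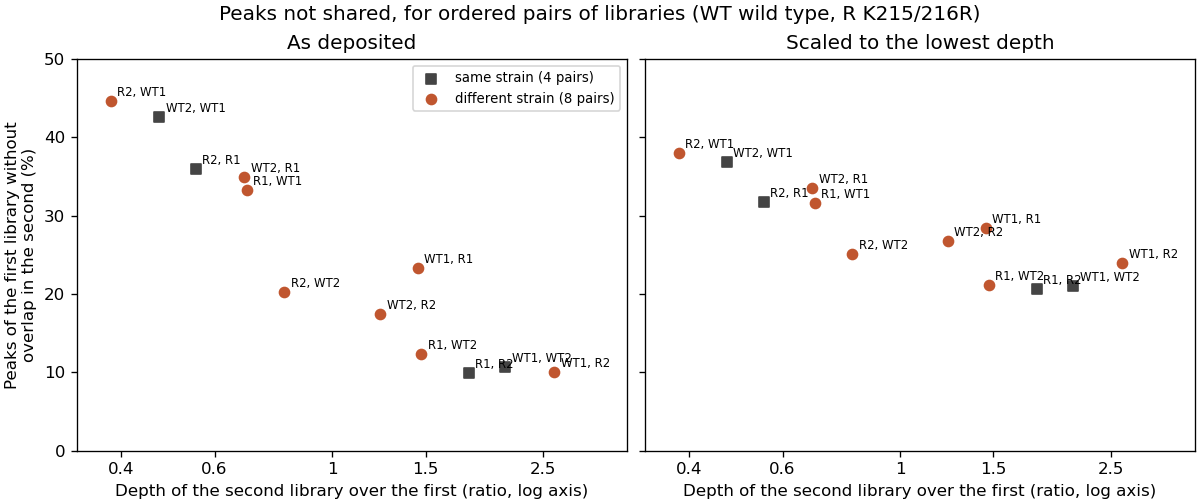
Share of the peaks of a first library with no overlapping peak in a second (y axis, percent) against the depth of the second over the first (x axis, ratio on a log axis), as deposited and after scaling to the lowest depth. Points are ordered pairs of the 4 libraries, named first, second; in the deposited lists the share is lowest, near 10%, where the second library is much deeper, for pairs within and between strains alike.

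One-strain regions were shorter and weaker than common ones in both strains. Long and strong regions meet the rule of called and overlapping peaks more readily, so such differences are partly built into the classes. The median length was 283 bp for regions only in K215/216R and 280 bp for those only in wild type, against 432 and 417 bp for the common regions of the same lists. In the authors' own fold enrichment, which is a ratio of pileup to local background and is used here only to describe and rank peaks, the medians were 1.47 and 1.51 for the one-strain regions and 1.62 and 1.66 for the common ones. No region only in K215/216R and 3 only in wild type reached 1 kb, where 150 and 143 common regions did. The long regions included the ribosomal DNA on chromosome XII, at 451786 to 466869, where the longest peak of K215/216R replicate 1 ran for 8901 bp and the highest local background of the 4 libraries lay between 50.7 and 61.8 times their genome background. Median peak length per library was 250 and 272 bp in wild type and 250 and 280 bp in K215/216R, and these overlapped (exact permutation test, two-sided, p = 1.0; the smallest p that 2 against 2 libraries allow is 0.33).

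The classes differed in how often they were also bound in the third strain. Of the regions only in K215/216R, 613 (66.0%) overlapped a region of the K215/216A merged list, against 206 (42.3%) of those only in wild type, while common regions did so in 87.1% and 87.5%. Among regions with no peak of the other strain the shares were 95 of 172 (55.2%) and 20 of 88 (22.7%). After scaling, the regions redrawn as one-strain overlapped the K215/216A list in 69.1% for K215/216R and 56.0% for wild type. With replicate 2 of each strain alone the shares were 38.6% and 21.5%, and with replicate 1 alone they were 59.0% and 37.0%. Over all peaks of a library, overlap with the K215/216A list was 73.8% and 64.3% in wild type and 76.1% and 66.1% in K215/216R, so the strains overlapped and the deeper library of each was the lower (exact permutation test, two-sided, p = 0.667). The K215/216A libraries had depths near that of K215/216R replicate 2, and the part of depth in these shares was not tested apart from the scaling.

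The position of the regions is read against the genome annotation. Yeast genes lie close together, and a promoter here is the 500 bp upstream of a coding gene. The strongest summit lay inside a gene for 56.2% of the regions only in K215/216R and for 70.2% of those only in wild type, against 55.7% and 55.1% for common regions and 73.7% of the bases of the annotated span. Promoter windows held 30.6% of the regions only in K215/216R, 25.3% of those only in wild type, 36.2% and 36.4% of the common ones and 21.3% of the span. These class differences depended on how the lists were drawn. After scaling, 55.6% of K215/216R-only and 63.8% of wild-type-only regions lay inside genes, and with replicate 2 of each strain alone 67.3% and 67.2% did, with 26.7% and 26.0% in promoter windows. With replicate 1 of each strain alone, 56.2% and 72.1% lay inside genes and 31.3% and 24.3% in promoter windows. With a −log10 q of at least 5, 52.7% and 58.5% lay inside genes and 35.0% and 36.9% in promoter windows. Space between tandem genes held 21.4% and 14.4% of the one-strain regions of K215/216R and wild type, and space between divergent genes held 12.6% and 11.1%.

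Per library these 2 shares did not separate the strains. Inside genes lay 59.9% and 59.8% of summits in wild type and 56.3% and 59.9% in K215/216R (exact permutation test, two-sided, p = 0.667). Promoter windows held 32.4% and 31.8% in wild type and 34.1% and 31.5% in K215/216R (exact permutation test, two-sided, p = 1.0). In both measures K215/216R replicate 1 stood apart from the other 3 libraries, and without it the promoter difference, K215/216R minus wild type, went from 0.701 to -0.602 percentage points and the gene difference from -1.76 to 0.0578. Within genes, 25.3% of the summits of regions only in K215/216R fell in the last 20% of the gene's length, against 18.1% for common regions of that list and 16.7% for regions only in wild type. This position was taken for the deposited classes only, not after scaling or with replicate 2 alone.

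**Figure D3:**
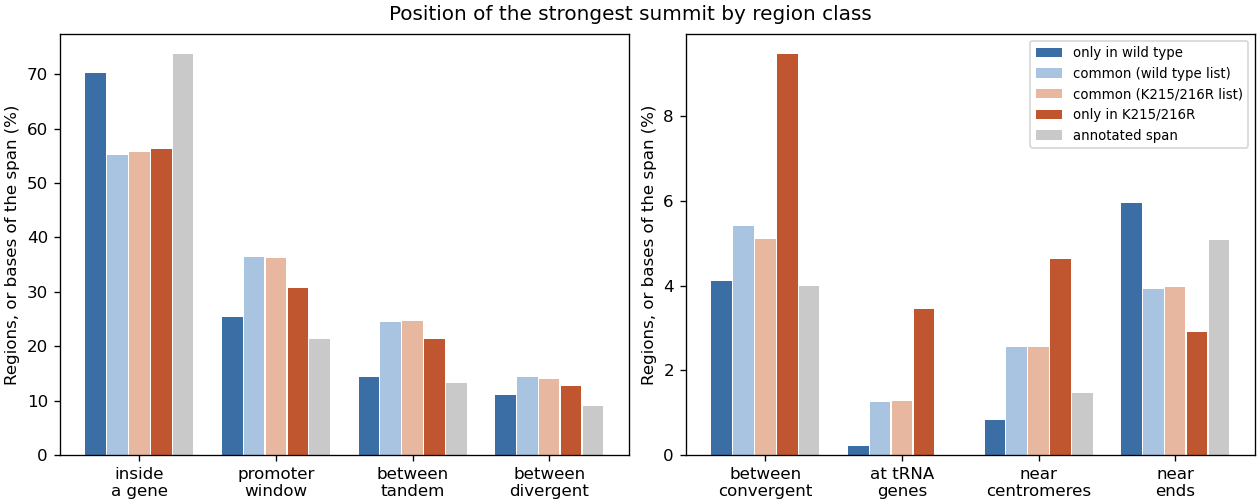
Share of regions (percent, y axis) whose strongest summit lay in each setting, for the 2 one-strain classes, the common regions of each list and, in grey, the share of bases of the annotated span (not computed for tRNA genes). Regions only in wild type lie inside genes in 70.2%, and regions only in K215/216R lead at convergent genes (9.47%), tRNA genes (3.44%) and centromeres (4.63%).

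K215/216R-only regions were more frequent at tRNA genes, near centromeres and between convergent genes. A tRNA gene, transcribed by RNA polymerase III, or its 500 bp upstream held the summit of 32 regions only in K215/216R (3.44%), of 1 only in wild type (0.205%) and of 27 common regions in each list (1.27% and 1.26%). Within 5 kb of a centromere interval, taken from the last gene of one arm to the first gene of the other, lay 43 regions only in K215/216R (4.63%) and 4 only in wild type (0.821%), against 2.54% and 2.56% of common regions and 1.47% of the span. Space between convergent genes, where 2 gene ends meet, held 88 (9.47%) and 20 (4.11%), against 5.09% and 5.4% of common regions and 3.98% of the span. Within 20 kb of a chromosome end the order was the other way, with 27 regions only in K215/216R (2.91%) and 29 only in wild type (5.95%), against 3.96% and 3.91% of common regions and 5.08% of the span. With replicate 2 of each strain alone, convergent space held 7.45% of K215/216R-only and 5.56% of wild-type-only regions, and the ends held 3.06% and 5.8%. With replicate 1 alone, convergent space held 8.83% and 4.12%, and the ends held 3.08% and 5.08%.

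These shares were then taken over all summits of each library, without the classes. The classes were drawn from the same peaks, so these shares are not separate support for the class differences. At tRNA genes lay 0.993% and 1.59% of summits in wild type replicates 1 and 2 and 1.83% and 1.80% in K215/216R, so both K215/216R libraries were higher than both wild type libraries. The difference was 0.527 percentage points, between 1.29% ± 0.422 (SD, n = 2) and 1.82% ± 0.0191 (SD, n = 2), at the smallest p the design allows (exact permutation test, two-sided, p = 0.333). Near centromere intervals lay 2.21% and 2.65% of summits in wild type and 2.94% and 2.94% in K215/216R, a difference of 0.514 percentage points without overlap (exact permutation test, two-sided, p = 0.333). Between convergent genes lay 5.12% and 5.72% in wild type and 6.35% and 5.99% in K215/216R, a difference of 0.752 without overlap (exact permutation test, two-sided, p = 0.333). With an equal number of peaks from each library the strains overlapped there, at 5.12% and 5.99% against 6.56% and 5.96% (exact permutation test, two-sided, p = 0.667). Near chromosome ends lay 4.32% and 3.96% in wild type and 3.63% and 3.48% in K215/216R, a difference of -0.583 without overlap (exact permutation test, two-sided, p = 0.333). Within 10 kb of an end the strains overlapped, and the difference was -0.258 (exact permutation test, two-sided, p = 0.667). None of these could pass a threshold of 0.05 with 2 libraries a strain. The measures at tRNA genes and between convergent genes were added after the data had been seen. Without wild type replicate 1 the difference at tRNA genes was 0.229 percentage points, that near centromeres 0.295 and that between convergent genes 0.453.

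**Figure D4:**
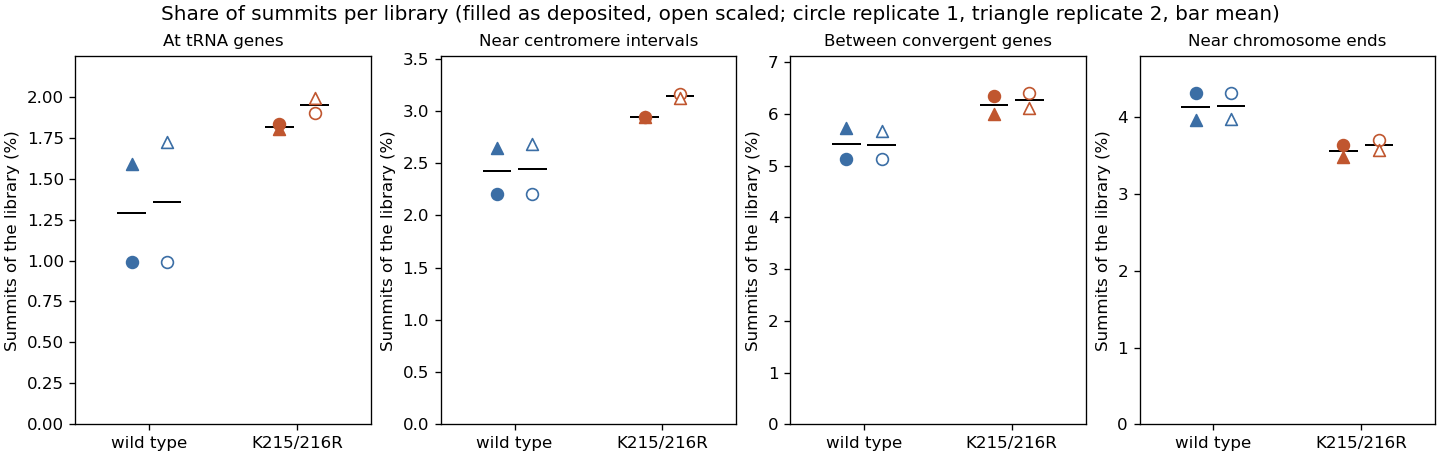
Share of all summits of a library (percent, y axis) in 4 settings, with circles for replicate 1, triangles for replicate 2, filled as deposited, open after scaling to the lowest depth, and bars for the mean of 2 libraries. In all 4 panels the strains do not overlap in the 2 peak sets drawn, and in the tRNA panel wild type replicate 1, at 0.993%, lies far below wild type replicate 2, at 1.59%.

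The tRNA genes that distinguished the lists were mostly bound in the deep wild type library too. Of the 275 nuclear tRNA genes, 32 and 76 had a summit in wild type replicates 1 and 2 and 67 and 88 in K215/216R, so on this count the strains overlapped, with the shallow wild type library far below the other 3. In the K215/216A libraries 102 and 93 had one. Of the 32 K215/216R-only regions at tRNA genes, none held a peak of wild type replicate 1, 25 held a peak of wild type replicate 2 and 7 held none. After scaling, 22 of the 32 stayed above the threshold in both K215/216R libraries, and 23 overlapped the K215/216A list. The strongest lay upstream of the tRNA gene YNCO0029C on chromosome XV, at 854552 to 854751, with a fold of 2.05 and 1.69 in K215/216R, 1.97 in wild type replicate 2, and 1.54 and 1.5 in K215/216A. The next lay upstream of YNCG0004W on chromosome VII, at 114989 to 115409, with 2.00 and 1.67 in K215/216R and 1.85 in wild type replicate 2. Among the 7 with no wild type peak were one over YNCE0021C on chromosome V, with 1.67 and 1.64 in K215/216R and 1.79 and 1.75 in K215/216A, one upstream of EMT1, a methionine tRNA gene, on chromosome IV, with 1.52 and 1.75, and one upstream of SUF6 on chromosome XIV, with 1.66 and 1.56. With the classes redrawn, tRNA genes held 3.12% of K215/216R-only and 0.503% of wild-type-only regions after scaling, but 2.14% and 1.09% with replicate 2 of each strain alone, where common regions held 1.72% and 1.70%. With replicate 1 of each strain alone they held 3.25% and 0.275%, against 1.12% and 1.21% of common regions.

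Around the centromeres, where Cse4 belongs, a large share of what K215/216R bound was outside the common class. Within 5 kb of a centromere interval, 43 of 97 K215/216R regions (44.3%) were only in K215/216R, while 4 of 59 wild type regions (6.78%) were only in wild type. Farther out the K215/216R share was 29.1% at 5 to 20 kb, 32.3% at 20 to 50 kb, 28.4% at 50 to 100 kb and 30.1% beyond, and the wild type share was 15.6% to 19.4%. Of these 43 regions, 35 held a peak of wild type replicate 2, 1 a peak of replicate 1 and 7 no wild type peak. After scaling 38 stayed above the threshold, and 40 overlapped the K215/216A list. With the classes redrawn, regions near centromeres were 5.56% of the K215/216R-only and 0.168% of the wild-type-only class after scaling. With replicate 2 of each strain alone they were 2.86% and 1.21%, where common regions held 2.97% and 2.95%, so the excess over the common class was not present in the deeper pair of libraries. With replicate 1 of each strain alone they were 4.0% and 0.962%, where common regions held 2.41% and 2.59%. With a −log10 q of at least 5 they were 5.79% and 0.664%, where common regions held 2.91% and 2.75%.

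Most of the centromere intervals themselves had a peak in each library, with the fewest in wild type replicate 1. Of the 16 intervals, a peak overlapped 11 in wild type replicate 1 and 14 in replicate 2, 15 in each K215/216R library and 16 in each K215/216A library. The interval of chromosome VII had a peak only in K215/216A, and that of chromosome VI had one in both K215/216R libraries, with a fold of 2.32 and 2.03, and in neither wild type library, although the region it belongs to was common. Over intervals with a peak, the highest fold of each had medians of 1.94 and 1.94 in wild type and 2.32 and 2.24 in K215/216R. These medians run over different intervals, 11 and 14 in wild type and 15 in each K215/216R library. The median over all peaks of those libraries was 1.66, 1.48, 1.57 and 1.46, which is a typical peak and not the highest of a site. In K215/216A the medians over intervals were 2.54 and 2.47.

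Among the K215/216R-only regions near centromeres the strongest, on chromosome IX at 354710 to 355566, had its summit in the gene YIL001W, 120 bp from the interval, which the region reached. Its fold was 2.93 and 2.24 in K215/216R, 1.79 in wild type replicate 2 and 3.36 and 3.92 in K215/216A, with no peak in wild type replicate 1. A region with its summit in the interval of chromosome XV, beside PHO80, the cyclin of the phosphate-sensing kinase Pho85, at 325717 to 326428, had 2.18 and 2.44 in K215/216R and 1.96 in wild type replicate 2. One with its summit in the interval of chromosome XI, beside VPS1, a dynamin-like GTPase of vesicle traffic, at 440299 to 440615, had 2.13 and 2.13 in K215/216R, 1.83 in wild type replicate 2 and 3.06 and 2.20 in K215/216A. At all 3 regions every library but the shallowest, wild type replicate 1, had a peak. Elsewhere over the same intervals that library had a peak on XI, with a best fold of 2.68, and on XV, with 1.52. It had none over the interval of IX. Further regions with the summit in an interval lay beside ECM15 and NTH2 on II, PRE3, a proteasome subunit, on X, YCR001W on III, DNM1, a GTPase of mitochondrial fission, on XII, IRC22 on V, HAT1, a histone acetyltransferase, on XVI, and CDC5, the polo kinase, on XIII. Over the intervals of these chromosomes, wild type replicate 1 had a peak on III, V, X, XIII and XVI and none on II and XII. The 7 without any wild type peak were at EFM5 on VII, CIT1, a citrate synthase, on XIV, SPB4 on VI, between NTH1 and YRB1 on IV, at LAG1 and near TCD1 on VIII and at NUP60, a nuclear pore protein, on I, all with a merged fold of 1.53 or less. The 4 wild-type-only regions near centromeres were at COQ1 on II, HSE1 on VIII, YPT7 on XIII and PGS1 on III, with merged folds of 1.33 to 1.52, and K215/216R replicate 2 had a peak at the last 2.

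Away from centromeres, the strongest regions of the K215/216R-only class were also present in wild type replicate 2. The first by fold lay beside YHL009W-B, a Ty element gene, on chromosome VIII at 91677 to 91831, with 2.63 and 2.59 in K215/216R and 2.81 in wild type replicate 2, and no peak in wild type replicate 1 or in K215/216A. The promoter of ARG56, an enzyme of arginine synthesis, on chromosome V at 294880 to 295097, had 2.39 and 2.25 in K215/216R and 2.14 in wild type replicate 2. The other regions of the first 10 lay at TGL5, a lipase, MUD1, a U1 snRNP protein, between MIN9 and SKA1, at DNL4, the DNA ligase of end joining, and upstream of YOR385W, with 1.49 to 2.21 in wild type replicate 2. All 10 had a peak there.

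The same held in the other direction. The strongest wild-type-only region lay in MRPL39, a mitochondrial ribosomal protein gene, on chromosome XIII at 251372 to 251578, with 2.30 and 1.95 in wild type and 1.72 in K215/216R replicate 2. Upstream of PAU16, a seripauperin gene 2345 bp from the left end of chromosome XI, the fold was 2.14 and 2.04 in wild type and 2.18 in K215/216R replicate 2. Upstream of LYS4, the homoaconitase of lysine synthesis, it was 1.95 and 2.08 in wild type and 1.45 in K215/216R replicate 2. At PCA1, a cadmium transporter, ICL2, and UBP9, a ubiquitin protease, K215/216R replicate 2 also had a peak, with 1.61 to 2.05. It also had one, at 1.68 and 1.80, at sites nearest to NCE103, a carbonic anhydrase, and STP2, a transcription factor of the amino acid response. Neither site lay in a coding gene or promoter window. Of the first 10 wild-type-only regions, those beside CLB4 and between COQ2 and MVD1 had no K215/216R peak.

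Of the 172 K215/216R regions with no wild type peak, 63.4% had the summit inside a gene and 26.7% in a promoter window. The strongest was the shared promoter of PKH1, a kinase of sphingolipid signalling, and IZH1, a membrane protein of zinc homeostasis, on chromosome IV at 1434645 to 1434814. It had 2.25 and 1.87 in K215/216R and 1.81 and 2.02 in K215/216A, with the nearest wild type peak 349 bp away. BAT2, a branched-chain aminotransferase, on chromosome X at 705129 to 705320, had 1.94 and 1.86 in K215/216R and 1.38 and 1.58 in K215/216A. SIR2, the histone deacetylase of silent chromatin, on chromosome IV at 378735 to 378891, had 1.82 and 1.73 in K215/216R and 1.54 in 1 K215/216A library. Promoters of ETT1, TMA17, YDR248C and of the Ty genes YBL005W-A and YBL005W-B, the body of SEC3, an exocyst subunit, the gene YPL062W and a site beside HOL1 made up the other 7, with 1.59 to 2.26 in the 2 K215/216R libraries. At YPL062W both K215/216A libraries were higher, at 2.00 and 2.17, while the Ty site, the YDR248C site and the HOL1 site had no peak in K215/216A.

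The wild type regions with no K215/216R peak were led by a site between the convergent genes CLB4, a B-type cyclin, and ATG38, on chromosome XII at 563520 to 563681. It had 2.32 and 1.85 in wild type and no peak in any of the 4 mutant libraries, the nearest K215/216R peak being 1304 bp away. The shared promoter of COQ2, of ubiquinone synthesis, and MVD1, of the mevalonate pathway, on chromosome XIV at 701614 to 701853, had 1.99 and 1.99 in wild type and 1.92 and 1.90 in K215/216A, with the nearest K215/216R peak 197 bp away. GUP2, on chromosome XVI at 190302 to 190625, had 1.79 and 1.99 and no peak in a mutant library, and RDH54, a DNA translocase of recombination, had 1.56 and 1.82 and none in a mutant library. The rest were between SEC3 and NTF2, a nuclear transport factor, beside ESL1, RRP45, an exosome subunit, and RDL2, between GPI1 and CCH1, a calcium channel, and in GTB1, with 1.43 to 2.16 in the 2 wild type libraries. SEC3 thus had a site of each class, in its body for K215/216R and at its promoter for wild type, on chromosome V at 167795 to 168109 and 171730 to 171960.

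**Figure D5:**
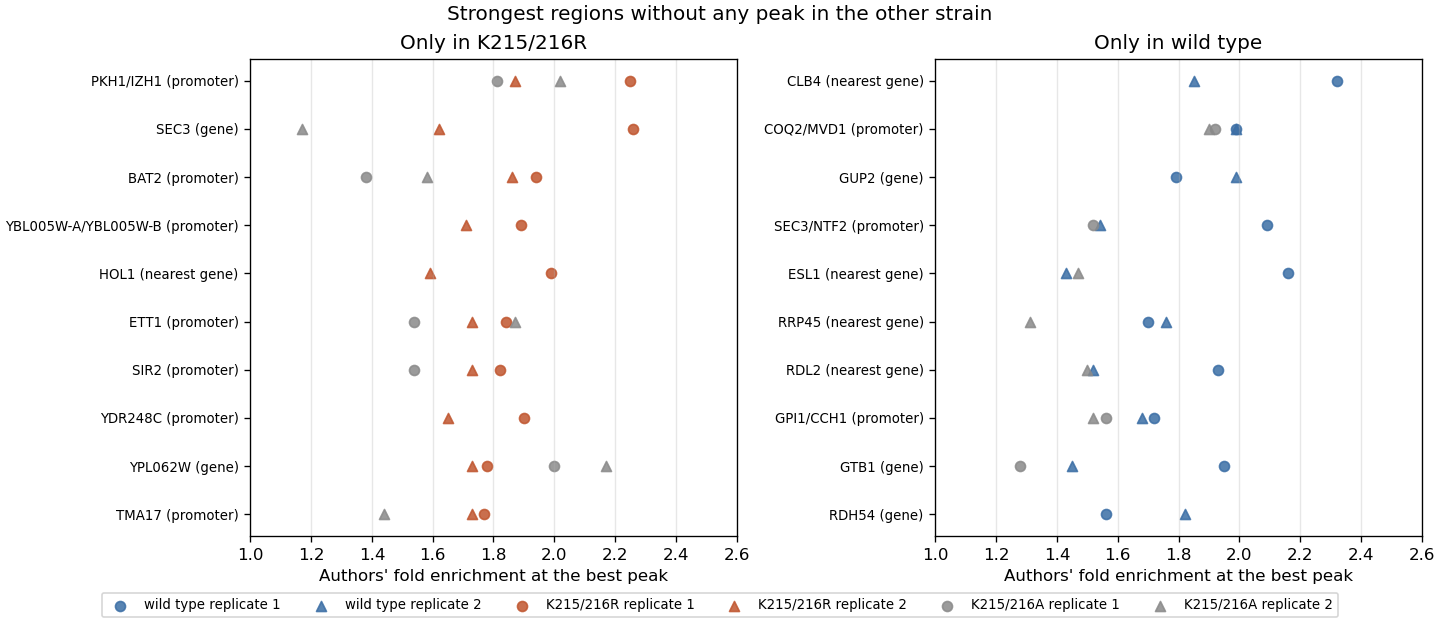
Authors' fold enrichment (x axis, ratio) of the best peak of each library at the 10 strongest regions of each strain without any peak of the other, with the gene and where the summit lay on the y axis. A missing point is a library with no peak; in these regions the 2 libraries of the strain lie between 1.43 and 2.32, and K215/216A points are present at 7 of the 10 sites in each panel.

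The strongest common regions had similar folds in both strains. They were picked for a high mean fold of the 2 strains, so high folds in both are partly built into the choice. The highest mean of the 2 strains lay between CYC1, cytochrome c, and UTR1, an NAD kinase, on chromosome X at 526696 to 526929, with 4.06 and 3.71 in wild type and 4.48 and 3.68 in K215/216R. TOS6, a cell wall protein, had 3.68 and 3.08 against 3.5 and 3.14, and GAT1, an activator of nitrogen genes, had 3.71 and 3.01 against 3.42 and 3.04. The promoter of GAL1 and GAL10, which encode enzymes of galactose use and are induced by the galactose given, had 3.52 and 2.76 against 3.28 and 3.01. In each of these 4 the ranges of the strains overlapped. Beside LEU1, an enzyme of leucine synthesis, the values were 2.96 and 2.20 in wild type, 3.01 and 3.33 in K215/216R and 3.42 and 3.84 in K215/216A, so the strains did not overlap. ALG13, RRT5, SNF11, URA3 and ARE2 completed the first 10. Relative to the genome background, local background in the 4 libraries reached 7.20 to 7.88 times at CYC1 and 11.8 to 14.8 times at GAL1 and GAL10. At URA3 it reached 23.3 to 28.6 times, and its part in the folds at these sites was not tested. The construct, pGAL-6His-3HA-CSE4, is named for a GAL promoter. Whether construct DNA added reads at any of these sites was also not tested.

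By gene, the differences between the strains were few. Of 6002 nuclear coding genes, 660 (11.0%) had a summit in the promoter window in all 4 libraries. A summit in both K215/216R and in neither wild type library was found at 79 promoters (1.32%), and the converse at 67 (1.12%). Summits of K215/216R-only regions lay in 328 promoters (5.46%) and those of wild-type-only regions in 151 (2.52%). Leaving out any 1 of the 4 libraries moved the first count to between 123 and 354 and the second to between 126 and 295. A strain is then called from 1 library, and the part of this in the shift was not tested.

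Over 23 gene lists, from galactose use to the kinetochore, no list had more than 3 promoters called in 1 strain alone. Genes of the lists called in K215/216R alone were 9, and those called in wild type alone were also 9. In 6 of these 18 no peak of the other strain touched the window at all, and in the other 12 a peak of the other strain overlapped it with the summit elsewhere or in 1 library. The 6 were ADH1, the main alcohol dehydrogenase, SIR2, BAT2, IZH1 and RPL15B, a ribosomal protein, in K215/216R, and DAL80, a repressor of nitrogen genes, in wild type. At ADH1 the fold was 1.70 and 1.29 in K215/216R and 1.38 and 1.59 in K215/216A, and at RPL15B it was 1.39 and 1.45 against 1.55 and 1.64. At DAL80 it was 1.5 and 1.62 in wild type, with no peak in K215/216A.

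The list counts are read against all genes, of which 11.0% were called in all 4 libraries, 1.32% in K215/216R alone and 1.12% in wild type alone, and a list's 1 to 3 one-strain calls are too few to set it apart. Of 77 measured genes of amino acid synthesis, 13 were called in all 4 libraries (16.9%), 1 in K215/216R alone (1.3%; BAT2) and 3 in wild type alone (3.9%; LYS4, HIS3 and ILV6, the regulatory subunit of acetolactate synthase). At HIS3 the summit fold was 1.66 and 1.74 in wild type, and both K215/216R libraries had a peak overlapping the window. Of 45 genes of sterol and lipid synthesis, 10 were called in all 4 (22.2%) and 2 in wild type alone (4.44%), MVD1 and PCT1, a phosphatidylcholine enzyme with 2.38 and 2.06 in wild type. Of 49 cell wall genes, 6 were called in all 4 (12.2%) and 2 in K215/216R alone (4.08%), GSC2, a glucan synthase, with 1.88 and 1.72, and GAS5, with 1.64 and 1.55. The remaining calls in 1 strain were SNF3, a glucose sensor, and ENB1, an iron siderophore transporter, in K215/216R, and THI73, TRX1, a thioredoxin, and RPS0A, a ribosomal protein, in wild type. Of 52 kinetochore and checkpoint genes, 7 were called in all 4 (13.5%) and none in 1 strain alone, as was so for 14 genes of the SUMO pathway, with 1 in all 4, and 12 galactose genes, with 2. Of 138 cytosolic ribosomal protein genes, 1 was called in all 4 libraries (0.725%), against 11.0% of all genes.

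All 16 chromosomes held regions of each class. The share of K215/216R regions outside the common class ran from 17.2% on IX to 35.6% on XVI, and that of wild type regions from 11.5% on VI to 22.6% on VIII. Chromosome IX was the one where the 2 shares were closest, at 17.2% and 16.5%. The share of a library's peaks on a chromosome did not overlap between the strains for 4 of 16 chromosomes (25.0%), VI, VII, VIII and X, and the largest difference in means among all 16 was on IX, -0.385 percentage points, where the libraries overlapped.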

How the data were processed

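The submitters' processing notes name sacCer3 as the build and Bowtie 1.0.0, MACS2 2.1.1.20160226 and bedtools 2.25.0 as tools. The peak caller's control and any filters are not given in the sources used here. The authors deposited peaks per library, with a score, a fold enrichment (ratio of pileup to local background), a −log10 p, a −log10 q (q of 0.05 or less) and the summit's distance from the peak start, and 1 merged list per strain with a mean fold. Pileup and local background were solved from the deposited fold and p, whole to within 0.1 for 99.7% or more of peaks in the 4 libraries. Scaling multiplied both by 1 factor per library and kept peaks at a −log10 p of at least 2.55. Genes came from the RefSeq R64 annotation, which is sacCer3, with strand read from systematic names. The centromere intervals were 630 to 2541 bp long. The right end of a chromosome was taken as its outermost annotated gene or listed peak position, since no chromosome length was at hand. The scripts used Python 3.11.15 and scipy 1.17.1 and were tested on simulated data. The 4 input libraries of these strains were not used. Members and gene lists were chosen with earlier results of these data known. Named regions were the 10 with the highest merged fold per class, all one-strain regions near centromeres, list genes called in 1 strain, and design loci; the 10 highest without a peak of the other strain and those at tRNA genes were added after the values were seen.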

Additional observations from a re-analysis of the deposited data

How the results depend on the processing

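Shares of summits at tRNA genes, near centromeres, between convergent genes and near chromosome ends kept their direction in every alternative run. The strains overlapped between convergent genes with equal lists and near ends at 10 kb. With a −log10 q of at least 5 there were 725 K215/216R-only regions, 301 wild-type-only regions and 980 common groups. With at least 10 there were 419 K215/216R-only, 116 wild-type-only and 387 common. An equal number of peaks from each library gave 658 K215/216R-only, 527 wild-type-only and 1500 common. Without any peak of the other strain 172 and 88 regions remained, and after scaling, chosen after seeing the data, 178 and 182. Replicate 2 alone gave 827 wild-type-only regions and 3714 common groups. Leaving out each library gave 238 to 2268 K215/216R-only regions, 146 to 1766 wild-type-only regions, 2162 to 2759 common groups, 123 to 354 promoters called in K215/216R alone and 126 to 295 in wild type alone. The cause was not tested, except that a strain left with 1 library has a longer list.

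As differences, K215/216R minus wild type, leaving out each library gave -0.602 to 2.0 percentage points for the promoter share and -3.58 to 0.0578 for the gene share, both reversed without K215/216R replicate 1. Overlap with K215/216A ran from -2.97 to 6.99, reversed without wild type replicate 2 (-2.73) or K215/216R replicate 1 (-2.97). The share of peaks of 1 kb or longer ran from -0.755 to 0.788, median length from -11.0 to 19.0 bp and depth from -6.75 to 62.9 fragments per base, all 3 reversed without wild type replicate 1 (-0.241, -7.0 and -5.36) or K215/216R replicate 2 (-0.755, -11.0 and -6.75). With the stricter q of 5 on that scale, the 1 kb share reversed to -0.269 and median length to -1.0 bp; these causes were not tested.

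The labels do not say whether libraries with the same replicate number shared a batch. Deviations of promoter calls in same-numbered libraries had a correlation of 0.0662 over 2423 promoters. A correlation takes no account of a shift common to all promoters, so it cannot show whether a batch was shared. Replicate 1 was the shallower library of both strains. With the replicate number as a block, the differences were the same, 0.527 at tRNA genes and 0.514 near centromeres, at an exact p of 0.5, the smallest that 2 pairs allow. Peaks below threshold in a library of low depth are not shown to be absent.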
